A study of Capra hircus with 9 samples.

Results

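The cytosolic and mitochondrial heat shock proteins examined here are a set of 10 genes taken by name: HSPA8, HSPH1, HSPA4, DNAJA1, DNAJB1, HSP90AA1, HSP90AB1, HSPD1, HSPE1 and HSPB1. A gene entered the set when its symbol stood in the gene column of the deposited expression files, and 9 of the 10 did so, among 18383 genes named in the files. HSPB1, a small heat shock protein, had no value under that name and was not analysed here. RNA was measured in 9 libraries of rumen epithelium, the stratified lining of the forestomach, from goats aged 4 months. There were 3 libraries from HC diet goats, 3 from MC diet goats and 3 from LC diet goats. The series describes the feeding only as 3 kinds of concentrate, and the letters are not spelled out. No genotype or other treatment is given, and no label says whether the libraries came from separate animals, so p-values measure only the spread between these samples, which may be technical.

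Heat shock proteins are molecular chaperones, which bind unfolded or partly folded proteins and help them reach or keep their shape. In the HSP70 cycle a J-domain protein (DNAJA1, DNAJB1) delivers a client and speeds ATP hydrolysis, HSP70 (here HSPA8) holds the client, and a nucleotide exchange factor (HSPH1, HSPA4) resets the chaperone. Clients such as kinases and steroid receptors pass on to HSP90, and proteins imported into mitochondria fold inside the barrel of HSP60 (HSPD1) under its lid HSP10 (HSPE1). Many of these genes are induced by heat shock factor HSF1, while HSPA8 and HSP90AB1 are known as the more constant forms that working cells need for ordinary folding.

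Values are FPKM, fragments scaled to transcript length and to the mapped fragments of a library. A level is given below as mean ± SD over the 3 libraries of a diet, and differences are log2 changes of FPKM + 1 with their SE, from 1 limma fit of the 9 libraries over 11668 genes, called where the Benjamini-Hochberg adjusted p over all of those genes was under 0.05 (two-sided). The added 1 makes changes of low genes look smaller than they are. Without read counts in the files, library depth is unknown. FPKM summed to 756030 in LC replicate 1 and to between 903418 and 1051183 in the other 8 libraries. Over all genes tested the median log2 change was -0.10 in HC minus LC, -0.007 in MC minus LC and -0.10 in HC minus MC. KRT5, a keratin of the basal layer, stood at 3941 ± 946 FPKM in HC, 3979 ± 374 FPKM in MC and 3610 ± 792 FPKM in LC, but KRT6A, KRT13, KRT15 and LOR, other epithelial markers, had no value under those names. Summed markers of smooth muscle, the muscle under the epithelium, were 111 to 146 FPKM in HC, 1160 to 3590 FPKM in MC and 2350, 1270 and 59.0 FPKM in LC replicates 1, 2 and 3. In bulk tissue, fewer cells of a type and less RNA per cell cannot be told apart.

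HSPA8, the constitutive cytosolic HSP70, and the exchange factors HSPH1 and HSPA4 all rose in MC against LC, and all were lower in HC than in MC. HSPA8 lies on chromosome 15 at 31969619 to 31974040, in the coordinates of the files, whose genome build is not given in the sources used here. It stood at 396, 313 and 385 FPKM in HC, 786, 709.7 and 790.1 FPKM in MC and 247, 315 and 341 FPKM in LC. Every MC library lay above all 6 others, while the HC and LC libraries overlapped. The log2 change was 1.35 ± 0.17 in MC minus LC (2.55-fold, adjusted p = 1.4e-04) and -1.07 ± 0.17 in HC minus MC (0.477-fold, adjusted p = 0.0014). In HC minus LC it was 0.28 ± 0.17, with an adjusted p of 0.241.

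HSPH1, the large HSP110 that acts as an exchange factor and holds unfolded protein, had the largest MC minus LC change of the 9 genes. It lies on chromosome 12 at 27557717 to 27581404 and had 21.3, 17.5 and 23.1 FPKM in HC, 39.2, 45.2 and 50.7 FPKM in MC and 10.4, 13.7 and 16.7 FPKM in LC. The 3 diets did not overlap, with MC on top and LC at the bottom. HSPH1 rose in MC against LC by 1.67 ± 0.17 on the log2 scale (3.18-fold, adjusted p = 3.47e-05) and in HC against LC by 0.58 ± 0.17 (1.495-fold, adjusted p = 0.0286). It was lower in HC than in MC, at -1.09 ± 0.17 (adjusted p = 0.00134). In HC minus LC it no longer passed when HC replicate 1 was left out (adjusted p = 0.0661), nor HC replicate 3 (0.112), LC replicate 1 (0.0751) or LC replicate 2 (0.0596).

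HSPA4, a cytosolic relative of HSPH1 with the same exchange role, lies on chromosome 7 at 40793516 to 40842667. Its levels were 27.8, 24.8 and 27.1 FPKM in HC, 46.4, 45.4 and 47.8 FPKM in MC and 21.0, 23.8 and 24.5 FPKM in LC. The MC libraries lay close together and far above the rest, and the lowest HC library lay just above the highest LC library. HSPA4 rose in MC against LC by 0.98 ± 0.11 (1.98-fold, adjusted p = 7.87e-05) and was lower in HC than in MC at -0.79 ± 0.11 (adjusted p = 8.09e-04). In HC minus LC the change was 0.20 ± 0.11, adjusted p = 0.221.

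**Figure D1:**
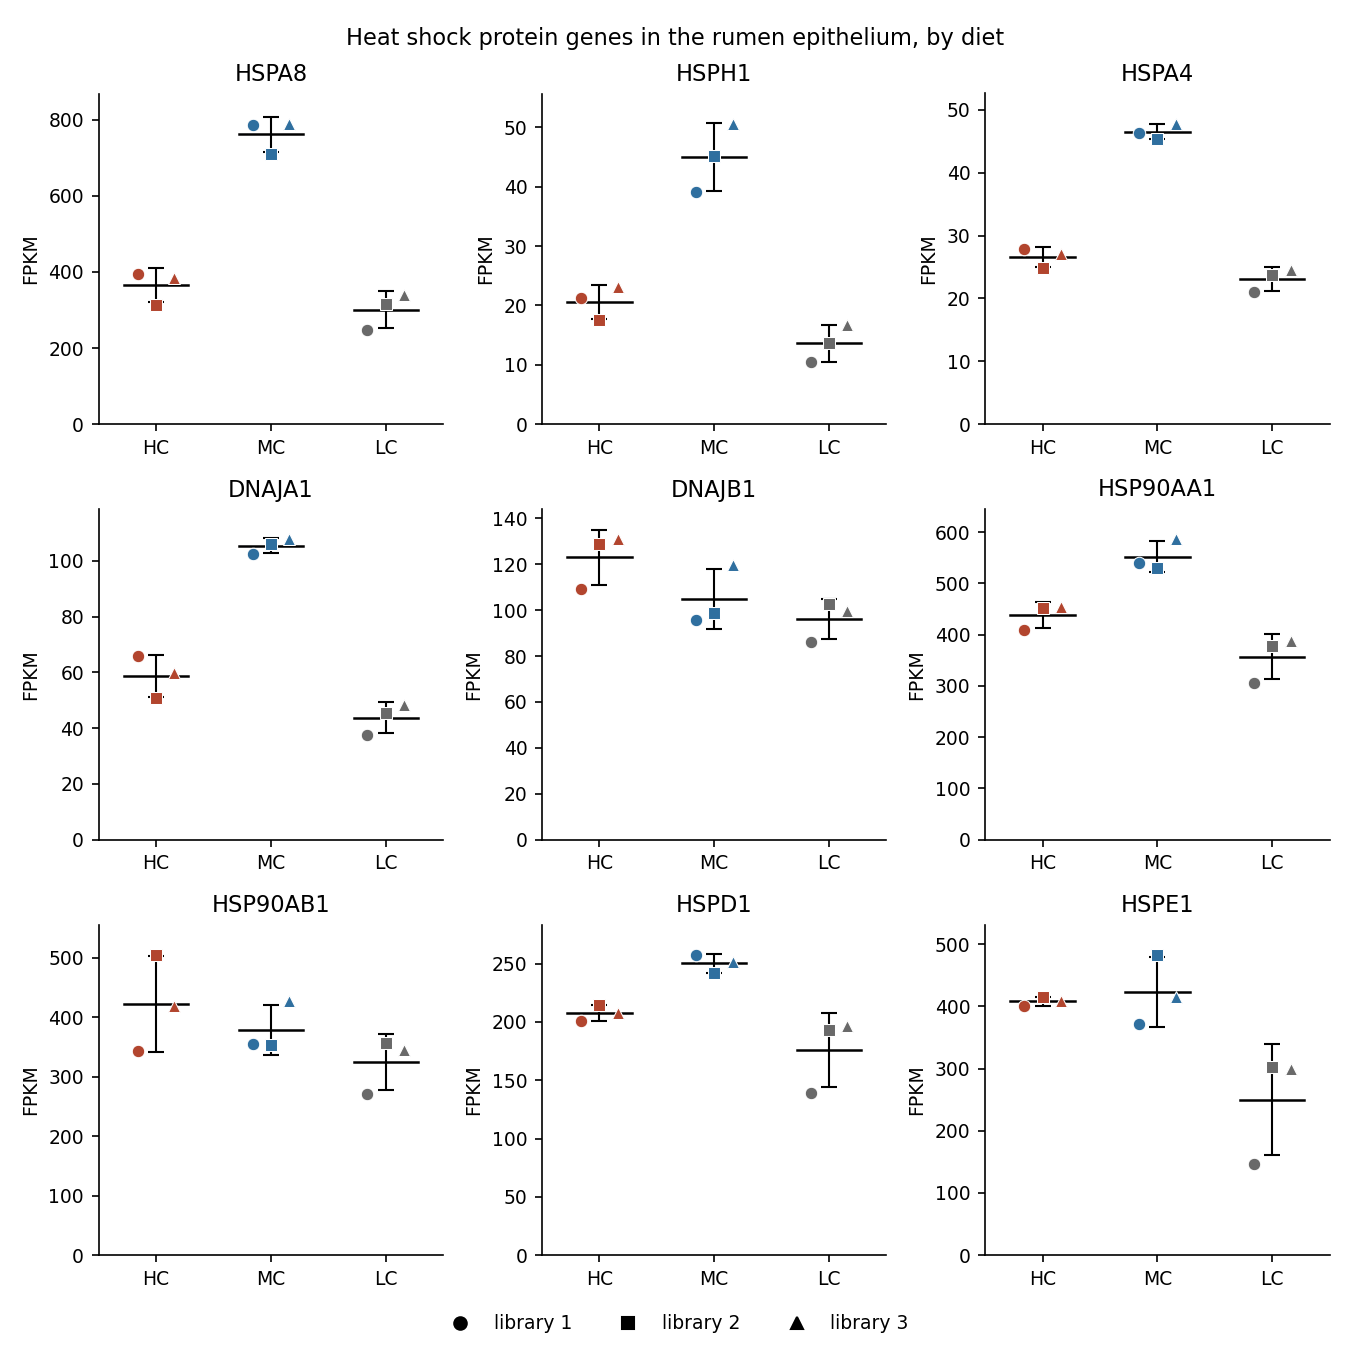
FPKM of the 9 heat shock genes in each library, with HC, MC and LC from left to right in every panel. Points are libraries (marker shape gives the replicate number), the black line is the mean and the bar is the SD of 3 libraries. HSPA8, HSPH1, HSPA4 and DNAJA1 have all 3 MC libraries far above the others, HSPE1 has LC replicate 1 far below, and DNAJB1 and HSP90AB1 have their highest mean in HC.

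The J-domain partners of HSP70 differed from each other. DNAJA1, a farnesylated J-domain protein that serves HSPA8, followed the HSP70 machinery, and DNAJB1, the stress-linked J-domain protein that HSF1 induces, did not pass the test in any comparison. DNAJA1 lies on chromosome 8 at 72989552 to 72998849. It had 66.0, 50.8 and 59.6 FPKM in HC, 103, 106 and 108 FPKM in MC and 37.5, 45.5 and 48.3 FPKM in LC. All MC libraries were above all HC libraries, and those above all LC libraries. DNAJA1 rose in MC against LC by 1.26 ± 0.14 (2.39-fold, adjusted p = 7.08e-05) and was lower in HC than in MC at -0.84 ± 0.14 (0.559-fold, adjusted p = 0.00204). In HC minus LC the log2 change was 0.42 ± 0.14 with an adjusted p of 0.0505, just outside the threshold.

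DNAJB1 lies on chromosome 7 at 8345452 to 8349205, and its levels were 109, 129 and 131 FPKM in HC, 95.6, 99.0 and 119.9 FPKM in MC and 86.1, 103 and 99.7 FPKM in LC. HC lay above LC in every library, and MC overlapped both. The log2 change was 0.35 ± 0.15 in HC minus LC (adjusted p = 0.0992), 0.12 ± 0.15 in MC minus LC (adjusted p = 0.564) and 0.23 ± 0.15 in HC minus MC (adjusted p = 0.262). Under a median-of-ratios scaling, which sets the typical gene equal between libraries, DNAJB1 in HC minus LC was 0.48 with an adjusted p of 0.0203.

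The cytosolic HSP90 pair also separated. HSP90AA1, the inducible form, lies on chromosome 21 at 63865286 to 63870038, and HSP90AB1, the constitutive form, on chromosome 23 at 17334541 to 17340283. HSP90AA1 stood at 409, 452 and 455 FPKM in HC, 539, 530.1 and 587 FPKM in MC and 306, 378 and 388 FPKM in LC. No diet overlapped another, with MC highest and LC lowest. HSP90AA1 rose in MC against LC by 0.63 ± 0.15 (1.55-fold, adjusted p = 0.00748). It stood at 0.30 ± 0.15 in HC minus LC (adjusted p = 0.162) and -0.33 ± 0.15 in HC minus MC (adjusted p = 0.125). Of 21 alternative settings, 6 called it in HC minus MC, among them quantile normalization (adjusted p = 0.0147) and the fit without LC replicate 1 (0.0196).

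HSP90AB1 had 344, 506 and 419.9 FPKM in HC, 355, 354 and 428 FPKM in MC and 270.3, 357 and 346 FPKM in LC. The 3 diets overlapped, and HC replicate 2 was the highest library. Its log2 changes were 0.38 ± 0.18 in HC minus LC (adjusted p = 0.155), 0.23 ± 0.18 in MC minus LC (adjusted p = 0.37) and 0.15 ± 0.18 in HC minus MC (adjusted p = 0.587).

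The mitochondrial chaperonin genes HSPD1 and HSPE1 stand beside each other on chromosome 2, HSPD1 at 85327793 to 85336964 and HSPE1 at 85337454 to 85343825, with 489 bases between them. In mammals they are known to share a promoter that reads in both directions. HSPD1, the HSP60 barrel, had 201, 214 and 208 FPKM in HC, 258, 242 and 251 FPKM in MC and 139, 193 and 196 FPKM in LC. No diet overlapped another, and LC replicate 1 was far below the other LC libraries. HSPD1 rose in MC against LC by 0.52 ± 0.16 (adjusted p = 0.0237). Its change was 0.25 ± 0.16 in HC minus LC (adjusted p = 0.253) and -0.27 ± 0.16 in HC minus MC (adjusted p = 0.226).

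HSPE1, the HSP10 lid, had HC and MC at like levels and LC below both. It had 401, 415 and 408 FPKM in HC, 372, 483 and 416 FPKM in MC and 147, 303 and 299.6 FPKM in LC. All HC and MC libraries were above all LC libraries, and the HC libraries fell inside the MC range. HSPE1 rose against LC in HC by 0.78 ± 0.25 (1.72-fold, adjusted p = 0.0383) and in MC by 0.82 ± 0.25 (1.77-fold, adjusted p = 0.0234), and HC minus MC was -0.046 ± 0.25 (adjusted p = 0.906).

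Without LC replicate 1 the HSPE1 change was 0.44 in HC minus LC (adjusted p = 0.0247) and 0.48 in MC minus LC (adjusted p = 0.011), and that of HSPD1 in MC minus LC was 0.36 (adjusted p = 0.0156). Leaving out other libraries lost calls instead. HSPE1 in HC minus LC failed the test without any 1 of the HC or MC libraries (adjusted p 0.0516 to 0.101), HSPE1 in MC minus LC failed without MC replicate 2 (0.0898) or 3 (0.0575), and HSPD1 in MC minus LC failed without MC replicate 1 (0.0815), 2 (0.0568) or 3 (0.0629). In these fits the log2 changes themselves stayed between 0.50 and 0.83. Near-identical copies of HSPA8, HSPD1, HSPE1 and both HSP90 genes are known in the human genome, and how fragments fitting several places were counted is not stated, so levels of these genes are uncertain to that extent. No locus of the 9 genes overlaps another gene of the files.

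Set side by side, MC against LC gave the most calls among the 9 genes. In that comparison 7 of 9 were higher and 0 lower, where 16.2% of all genes tested were higher and 33.4% passed in either direction, and the median log2 change of the 9 was 0.82. The libraries of 7 genes did not overlap, all with MC higher, against 23.8% of all genes. Against MC, HC had 4 of 9 genes lower (HSPA8, HSPH1, HSPA4 and DNAJA1), where 17.0% of all genes were lower, and 0 of 9 higher, where 8.00% of all genes were (25.0% passed in either direction). The median of the 9 was -0.33. Here 6 of the 9 did not overlap with HC lower, against 31.6% of all genes. Between HC and LC, 2 of 9 were higher (HSPH1 and HSPE1), where 7.79% of all genes were higher and 25.2% passed in either direction, with 0 of 9 lower and a median of 0.35. In this comparison 7 of the 9 did not overlap with HC higher, against 13.3% of all genes, and 0 with HC lower, against 27.4%. The 3 comparisons share libraries in pairs and are not independent of each other.

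The HC minus LC count depended on the scaling, on weighting of the libraries and on which libraries were used, those of HC included. It ran from 0 to 3 of 9 when each library was left out in turn. All 9 genes had a positive log2 change there under each scaling tried, but the count of calls was 7 of 9 under median-of-ratios scaling, where all genes split into 1494 higher and 1329 lower calls in place of 909 and 2030, and 0 of 9 with LC replicate 3 alone for LC. In HC minus MC that scaling changed the split of all genes to 1513 higher and 1319 lower, in place of 933 and 1984. In the F test over the 3 diets 7 of 9 genes passed, against 45.2% of all genes tested, and each of the 7 had its highest mean in MC, as did 40.7% of all genes that passed. DNAJB1 (adjusted p = 0.142) and HSP90AB1 (adjusted p = 0.229) did not pass the F test. HSPA8, HSPH1, HSPA4 and DNAJA1 kept both their MC minus LC and their HC minus MC calls in 21 of 21 alternative settings. HSP90AA1 kept its MC minus LC call in 21 of 21. Settings that only left out LC libraries could not alter the HC minus MC log2 change, only its spread, and likewise for the diet not compared in other comparisons.

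**Figure D2:**
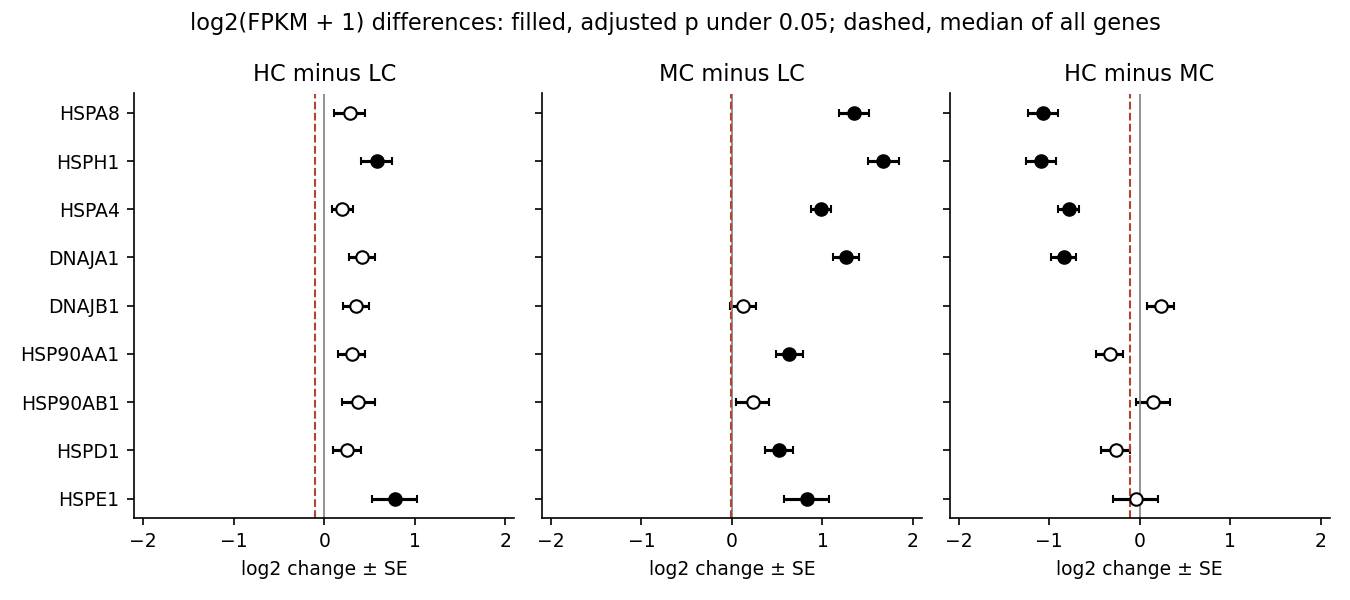
Log2 change of FPKM + 1 (x axis) with its SE for each of the 9 heat shock genes in HC minus LC, MC minus LC and HC minus MC. Filled points passed the test and the dashed line is the median of all genes. In MC minus LC the values run from 0.12 for DNAJB1 to 1.67 for HSPH1, and in HC minus MC only DNAJB1 and HSP90AB1 lie above 0.

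The order of levels within a diet changed with it. FPKM is per transcript length, so levels of different genes are set beside each other here. The levels of HSPA8, HSPD1, HSPE1 and both HSP90 genes are uncertain because of near-identical copies, and so is their place in the order. In HC the order was HSP90AA1, HSP90AB1, HSPE1, HSPA8, HSPD1, DNAJB1, DNAJA1, HSPA4 and HSPH1, and the ranges of the first 3 genes overlapped. In MC, HSPA8 came first, followed by HSP90AA1, HSPE1, HSP90AB1, HSPD1, DNAJA1, DNAJB1, HSPA4 and HSPH1. There the ranges of HSPE1 and HSP90AB1, of DNAJA1 and DNAJB1, and of HSPA4 and HSPH1 overlapped. In LC the order was HSP90AA1, HSP90AB1, HSPA8, HSPE1, HSPD1, DNAJB1, DNAJA1, HSPA4 and HSPH1. The ranges of the first 5 genes overlapped between neighbours, but each neighbour pair kept its order in 3 of 3 libraries.

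Among all genes of a library ranked by FPKM, HSPA8 was number 294, 370 and 333 in HC, 177, 191 and 179 in MC and 350, 361 and 340 in LC. HSPH1 was number 3127, 3698 and 3094 in HC, 2061, 1781 and 1722 in MC and 5331, 4572 and 4020 in LC. HSP90AB1 moved little by comparison, at 328, 259 and 306 in HC, 324, 326 and 286 in MC and 323, 320 and 335 in LC. These ranks do not depend on how a library was scaled.

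Together the 9 genes took 0.205%, 0.202% and 0.202% of the summed FPKM of the HC libraries, 0.286%, 0.29% and 0.307% in MC and 0.167%, 0.169% and 0.171% in LC. The shares were close within each diet and did not overlap between diets. LC replicate 1 was the lowest LC library for 9 of 9 genes in FPKM, yet its share was close to that of the other LC libraries, and its summed FPKM was the lowest of all 9 libraries. Within HC the libraries crossed: replicate 1 was highest for HSPA8, DNAJA1 and HSPA4 and lowest for HSP90AA1, HSP90AB1, HSPD1, HSPE1 and DNAJB1, while replicate 2 was lowest for HSPA8, HSPH1, HSPA4 and DNAJA1. In MC, replicate 3 was highest for 7 of 9 genes, all but HSPD1 and HSPE1.

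Ratios within a library compare partners without any scaling. They were chosen after the values were seen and are given as description, with no test. HSPA8 over HSP90AB1 was 1.15, 0.62 and 0.916 in HC, 2.21, 2.01 and 1.85 in MC and 0.915, 0.881 and 0.986 in LC, so all MC libraries stood above all others. DNAJA1 over DNAJB1 was 0.604, 0.394 and 0.455 in HC, 1.07, 1.07 and 0.899 in MC and 0.435, 0.443 and 0.484 in LC, again with MC apart. HSP90AA1 over HSP90AB1 was 1.19, 0.894 and 1.08 in HC, 1.52, 1.5 and 1.37 in MC and 1.13, 1.06 and 1.12 in LC.

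The chaperonin pair behaved otherwise. HSPE1 over HSPD1 was 1.99, 1.93 and 1.96 in HC, 1.44, 2.0 and 1.65 in MC and 1.05, 1.57 and 1.53 in LC, so HC stood above LC and MC overlapped both. HSPA4 over HSPH1 was 1.31, 1.42 and 1.18 in HC, 1.18, 1.0 and 0.944 in MC and 2.01, 1.73 and 1.47 in LC, which put LC above both other diets.

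**Figure D3:**
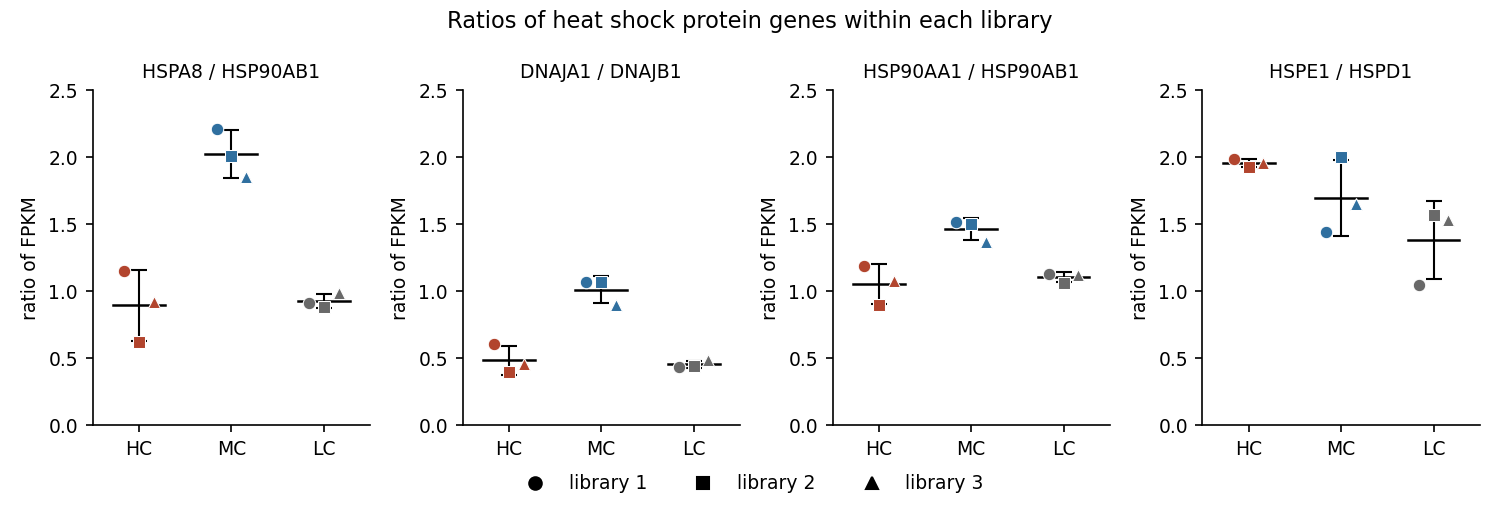
Ratios of FPKM between pairs of chaperone genes within each library, with HC, MC and LC from left to right, points for libraries, a black line for the mean and a bar for the SD of 3 libraries. HSPA8 over HSP90AB1 lies between 1.85 and 2.21 in MC and between 0.62 and 1.15 in the other libraries.

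Around this core stands a wider chaperone network, taken as a list of 76 other genes by family, of which 72 were listed in the files and 68 tested. In MC minus LC, 23 of the 68 were higher and 2 lower, against 16.2% and 17.1% of all genes, with a median log2 change of 0.33. HC minus MC had 1 higher and 17 lower, against 8.00% and 17.0% of all genes, with a median of -0.29. Between HC and LC 8 were higher and 4 lower, against 7.79% and 17.4% of all genes, with a median of 0.062. Over the 3 diets 30 of 68 passed the F test, a share near the 45.2% of all genes, and 24 of those 30 were highest in MC, against 40.7% of all genes that passed.

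HSF1, the main factor that switches on heat shock genes, did not pass in any comparison, at 30.8 ± 3.54 FPKM in HC, 26.0 ± 2.78 FPKM in MC and 29.1 ± 5.46 FPKM in LC (adjusted p over the 3 diets = 0.421). In MC minus LC 1 of 21 alternative settings, the fit with array weights, called HSF1 lower (-0.33, adjusted p = 0.0309). HSBP1, a small protein that binds heat shock factor trimers, fell in HC against LC by 0.47 on the log2 scale (adjusted p = 0.0278), with 95.1 ± 10.9 FPKM in HC, 115 ± 6.19 FPKM in MC and 132 ± 11.1 FPKM in LC. Of 21 alternative settings 14 kept the HSBP1 call.

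Of the other HSP70 genes, 5 of 7 tested were higher in MC than in LC, 2 were higher in HC than in LC, and 2 were lower in HC than in MC, against 16.2%, 7.79% and 17.0% of all genes. The stress-induced HSP70 HSPA1A, which the files list under the older name HSP70.1, had 459, 661 and 713 FPKM in HC, 395, 472 and 614 FPKM in MC and 184, 256 and 238 FPKM in LC. All HC and MC libraries were above all LC libraries, and HC and MC overlapped. HSPA1A rose against LC by 1.42 ± 0.22 in HC (2.67-fold, adjusted p = 9.44e-04) and by 1.11 ± 0.22 in MC (2.16-fold, adjusted p = 0.00262), and HC minus MC was 0.31 ± 0.22 (adjusted p = 0.327). HSPA1A and HSPA1B are near-identical, so the value may hold fragments of both. In the files HSP70.1 covers 551 bases of a short sequence and may be a partial gene, which makes its length-scaled level uncertain, so that level is compared between libraries here and not with levels of other genes.

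HSPA6, another induced HSP70, was low but had a like order, at 6.23 ± 1.26 FPKM in HC, 5.76 ± 2.15 FPKM in MC and 2.17 ± 0.185 FPKM in LC. It rose against LC by 1.17 in HC (adjusted p = 0.00167) and by 1.05 in MC (adjusted p = 0.00213). HSPA1A over HSPA8 was 1.16, 2.11 and 1.85 in HC, 0.502, 0.666 and 0.776 in MC and 0.744, 0.814 and 0.699 in LC, higher in all 3 HC libraries than in any of the 6 others. Since the length of HSP70.1 is uncertain, this ratio is compared only between libraries. Its size does not say which of the 2 genes was higher. Immediate early genes such as FOS and JUN respond to handling of tissue. The 8 examined summed to 439 to 612 FPKM in HC, 281 to 365 FPKM in MC and 296 to 454 FPKM in LC. Of these, 5 of 8 were higher in HC than in LC, against 7.79% of all genes. In MC minus LC 3 were higher (FOS, FOSB and ATF3) and 1 lower (JUNB), against 16.2% and 17.1% of all genes. In HC minus MC 4 were higher, against 8.00% of all genes. The part of handling and of the immediate early genes in the HSPA1A and HSPA6 values was not tested.

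Other J-domain proteins had 5 of 15 higher in MC than in LC and 8 of 15 lower in HC than in MC, against 16.2% and 17.0% of all genes. DNAJC9, which escorts histones, had 4.87 ± 0.239 FPKM in HC, 7.88 ± 0.458 FPKM in MC and 3.21 ± 0.525 FPKM in LC and rose in MC against LC by 1.08 (adjusted p = 7.22e-05). DNAJC2, a ribosome-bound J-domain protein whose locus overlaps PMPCB in the files, had 6.80 ± 2.33 FPKM in HC, 17.6 ± 0.892 FPKM in MC and 13.1 ± 2.33 FPKM in LC. It was lower in HC than in LC, at -0.88 (adjusted p = 0.00674), and than in MC, at -1.29 (adjusted p = 9.92e-04). DNAJB2, a ubiquitin-binding J-domain protein, was lower in HC than in LC at -0.33 (adjusted p = 0.0436), a call that only 5 of 21 alternatives kept.

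HSP90 cochaperones were higher in MC than in LC for 8 of 16 genes and lower in HC than in MC for 4 of 16, against 16.2% and 17.0% of all genes. STIP1, the adaptor that links HSP70 and HSP90, had 74.1, 106 and 110.1 FPKM in HC, 109, 124 and 154 FPKM in MC and 52.6, 74.6 and 77.6 FPKM in LC. It rose in MC against LC by 0.92 ± 0.20 (adjusted p = 0.00519), while HC overlapped both other diets. CACYBP, which binds calcyclin and the ubiquitin ligase SIAH1, stood at 30.7 ± 1.60 FPKM in HC, 68.9 ± 5.30 FPKM in MC and 27.5 ± 3.37 FPKM in LC. CACYBP rose in MC against LC by 1.30 (adjusted p = 2.75e-05) and was lower in HC than in MC at -1.14 (adjusted p = 1.91e-04), a pattern like that of HSPA8.

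TTC4, a low HSP90 cochaperone whose locus overlaps PARS2, was lowest in HC, at 3.44 ± 0.337 FPKM in HC, 6.16 ± 0.254 FPKM in MC and 5.20 ± 0.306 FPKM in LC. It was lower in HC than in LC (-0.48, adjusted p = 0.00897) and than in MC (-0.69, adjusted p = 0.00157). Among the HSP70 exchange factors and helpers, 2 of 8 were higher in MC than in LC and 1 lower in HC than in MC, where 16.2% and 17.0% of all genes were. BAG3, an HSF1-induced partner of HSP70 and HSPB8, had 34.9 ± 4.36 FPKM in HC, 34.8 ± 5.91 FPKM in MC and 26.6 ± 3.24 FPKM in LC. It passed in no comparison (adjusted p = 0.0935 in HC minus LC, 0.0884 in MC minus LC and 0.963 in HC minus MC), although 4 of 21 alternatives called it in HC minus LC and 2 of 21 in MC minus LC.

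Small heat shock proteins, which hold unfolded protein without ATP, included CRYAB, with the largest MC minus LC change in the network. Of 4 tested, 2 were higher in MC than in LC, 2 higher in HC than in LC and 2 lower in HC than in MC. The shares of all genes were 16.2%, 7.79% and 17.0%. CRYAB had 18.8, 15.95 and 16.6 FPKM in HC, 45.7, 44.0 and 37.8 FPKM in MC and 10.9, 9.87 and 7.96 FPKM in LC, with no overlap between diets. CRYAB rose in MC against LC by 2.05 ± 0.14 (4.13-fold, adjusted p = 1.97e-06) and in HC against LC by 0.78 ± 0.14 (adjusted p = 0.00179), and was lower in HC than in MC at -1.26 (adjusted p = 1.56e-04). HSPB8, which works with BAG3, had 46.4 ± 1.22 FPKM in HC, 77.2 ± 0.669 FPKM in MC and 33.8 ± 7.00 FPKM in LC. It rose in MC against LC by 1.19 (adjusted p = 1.29e-04) and was lower in HC than in MC at -0.72 (adjusted p = 0.00525). The HC minus MC call was lost with a smooth muscle covariate (-0.36, adjusted p = 0.267). Summed muscle markers did not overlap between HC and MC, so that fit cannot separate diet from muscle RNA there. HSPB8 in HC minus LC was 0.46 (adjusted p = 0.0383), which 10 of 21 alternatives kept.

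Of the mitochondrial chaperones and proteases other than HSPD1 and HSPE1, 1 of 15 was higher and 2 lower in MC than in LC, and 2 were higher in HC than in LC. Of all genes 16.2% were higher and 17.1% lower in MC than in LC and 7.79% higher in HC than in LC. HSPA9, the mitochondrial HSP70, was flat, at 153 ± 6.43 FPKM in HC, 147 ± 8.99 FPKM in MC and 143 ± 20.8 FPKM in LC (adjusted p over the 3 diets = 0.802). Its nucleotide exchange factor GRPEL1 had 114, 124 and 123 FPKM in HC, 126, 127 and 141 FPKM in MC and 46.5, 75.5 and 69.7 FPKM in LC, with both HC and MC above every LC library. GRPEL1 rose against LC by 0.93 ± 0.17 in HC (adjusted p = 0.00277) and by 1.06 ± 0.17 in MC (adjusted p = 8.44e-04). Every HC library of GRPEL1 lay below every MC library, while for HSPE1 the HC libraries fell inside the MC range. The order of means, MC above HC above LC, was shared with HSPE1. It was not particular to these genes, as 7 of the 9 heat shock genes had their highest mean in MC.

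HTRA2, a mitochondrial protease whose locus overlaps LOXL3, was lowest in MC, with 27.5 ± 1.60 FPKM in HC, 20.7 ± 1.79 FPKM in MC and 32.1 ± 3.30 FPKM in LC. It fell in MC against LC by 0.61 on the log2 scale (adjusted p = 0.00277) and was 0.39 higher in HC than in MC (adjusted p = 0.0361, kept in 14 of 21 alternatives). DNLZ, which keeps HSPA9 soluble, fell in MC against LC by 0.48 (adjusted p = 0.0257, kept in 15 of 21 alternatives), with 66.8 ± 7.30 FPKM in HC, 56.6 ± 2.02 FPKM in MC and 80.3 ± 13.4 FPKM in LC.

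**Figure D4:**
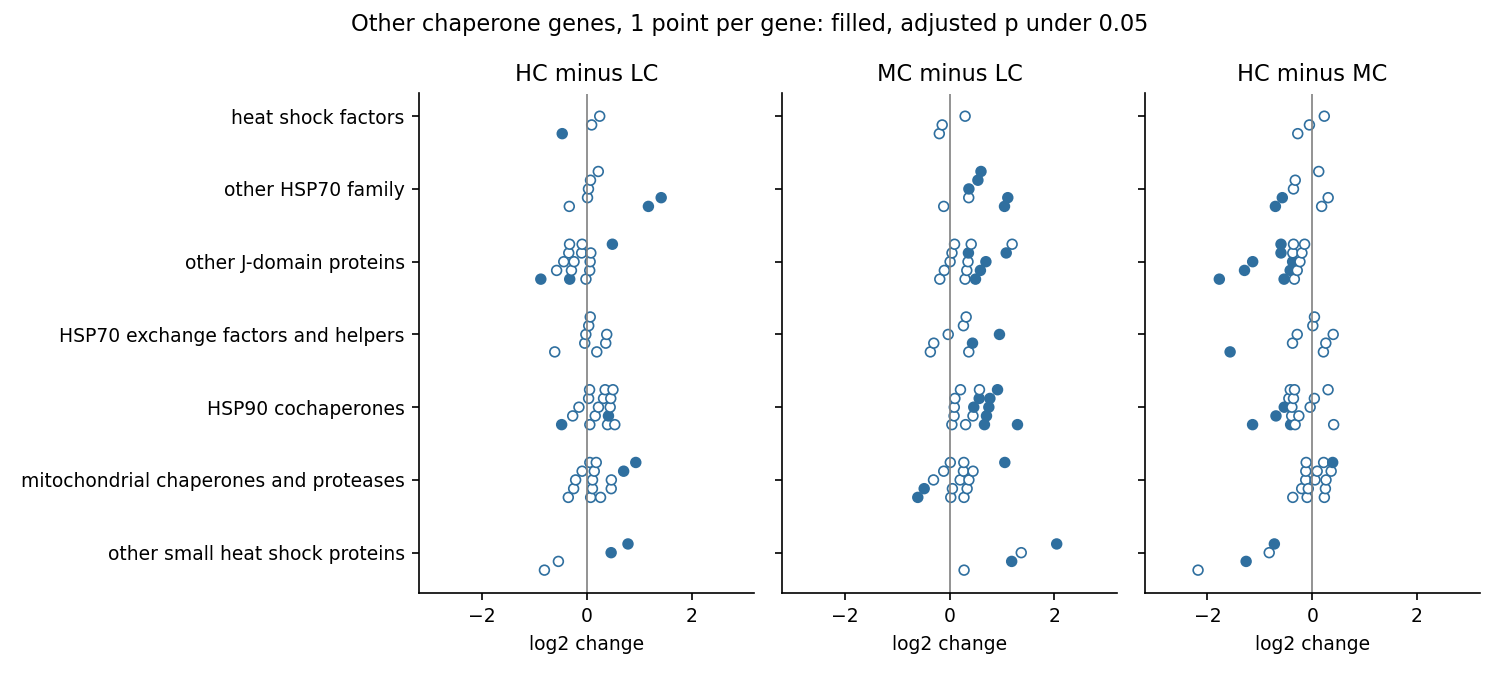
Log2 change of FPKM + 1 (x axis) for the tested genes of the chaperone network, by family, in HC minus LC, MC minus LC and HC minus MC, with filled points for genes past the test. CRYAB has the largest change in MC minus LC at 2.05, and in HC minus MC 17 of 68 genes pass the test below 0 and 1 above it.

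Profiles over the 9 libraries were compared as the root mean square difference of log2(FPKM + 1) centred on each gene's mean, where 0 means the same profile. Changes were not scaled to a common size, so genes with small changes lie close together whatever their shapes. Within the set the closest pairs were HSPD1 with HSP90AA1 at 0.077, HSP90AB1 with DNAJB1 at 0.10 and HSPA8 with DNAJA1 at 0.11. HSP90AB1 and DNAJB1 did not pass the F test (adjusted p = 0.229 and 0.142). HSPA8 lay at 0.18 from both HSPA4 and HSPH1. The 5 genes outside the set and the network that lay nearest to the mean profile of the 9 were SSU72 at 0.058, LSM4 at 0.071, PCSK7 at 0.078, MYO19 at 0.079 and the unnamed LOC102179794 at 0.079.

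Nearest to single genes of the set were MFSD12 for HSPA8 (0.098), NIP7 for HSPH1 (0.09), G3BP1 for HSPA4 (0.062), WDHD1 for DNAJA1 (0.081) and ECM1 for DNAJB1 (0.052). ALKBH3 lay nearest to HSP90AA1 (0.04), ATRIP to HSP90AB1 (0.06), NFKBIB to HSPD1 (0.056) and PFDN2 to HSPE1 (0.129). PFDN2 is a subunit of prefoldin, a chaperone that delivers clients to the cytosolic chaperonin. All 9 points of such a profile share their libraries' scaling, and among 11668 genes some lie near any profile.

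Markers of other cells also differed between libraries. All 8 smooth muscle markers were listed, and their sum was low in all HC libraries and in LC replicate 3 and high in all MC libraries and in LC replicates 1 and 2. In limma 0 of 8 passed in HC minus LC (1 at an unadjusted p under 0.05) and 0 of 8 in MC minus LC (0 unadjusted). In HC minus MC 2 of 8 were lower (7 unadjusted), against 17.0% of all genes at the adjusted threshold. There the libraries of 7 of 8 did not overlap, with HC lower, against 31.6% of all genes. The median log2 change of the 8 was -3.93. HSPA8 stood at 709.7 to 790.1 FPKM in MC and at 247, 315 and 341 FPKM in LC replicates 1, 2 and 3. With the mean of the smooth muscle markers as a covariate, chosen after seeing the data, the log2 change of HSPA8 was 1.47 in MC minus LC (adjusted p = 1.21e-04) and -1.34 in HC minus MC (adjusted p = 0.00901). The marker sums of HC and MC did not overlap, so in HC minus MC the covariate fit cannot separate diet from muscle RNA.

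With LC replicate 3 alone for LC, also chosen after seeing the data and with the spread taken from HC and MC, HSPA8 in MC minus LC was 1.16 (adjusted p = 0.00239). HSPH1, HSPA4, DNAJA1 and HSP90AA1 kept their MC minus LC calls in both of these fits. HSPE1 and HSPD1 kept theirs with the covariate (adjusted p = 0.00897 and 0.0148) but not with LC replicate 3 alone, where HSPE1 was at 0.49 (adjusted p = 0.0679) and HSPD1 at 0.35 (adjusted p = 0.107). No gene of the set was called in HC minus LC in either fit. HSPH1 then had 0.36 (adjusted p = 0.171) with the covariate and 0.28 (adjusted p = 0.391) with the single LC library.

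All 7 leukocyte markers were listed and summed to 8.31 to 11.2 FPKM in HC, 12.2 to 12.5 FPKM in MC and 33.6 to 36.4 FPKM in LC. All 6 that were tested were lower in HC and in MC than in LC, against 17.4% and 17.1% of all genes. Of 10 upper epithelial layer markers 7 were listed, and their sum was 744 to 1160 FPKM in HC, 1340 to 1700 FPKM in MC and 910.0 to 1300.0 FPKM in LC. The members of that list went different ways. Of 6 tested, 1 was higher and 2 were lower in MC than in LC, against 16.2% and 17.1% of all genes. In HC minus LC 2 were lower, against 17.4% of all genes. In HC minus MC 2 were higher and 2 lower, against 8.00% and 17.0% of all genes. TGM1, a transglutaminase of the cornified envelope, rose in MC against LC by 1.08 (adjusted p = 0.00197), whereas KRT4, a keratin of upper layers, was at -4.11 (adjusted p = 1.51e-05) and CNFN, a cornified envelope protein, at -1.88 (adjusted p = 0.00206). Of 6 basal markers 5 were listed. Their sums overlapped between diets at 4290 to 6450 FPKM in HC, 5020 to 5780 FPKM in MC and 3940 to 6080 FPKM in LC. In MC minus LC 1 of 5 was lower (COL17A1, -0.78, adjusted p = 0.0062), against 17.1% of all genes. In HC minus MC 1 of 5 was higher (TP63, 0.43, adjusted p = 0.0327), against 8.00% of all genes. In HC minus LC 0 of 5 passed, against 25.2% of all genes in either direction. All 4 endothelial markers were listed. They summed to 6.09 to 10.6 FPKM in HC, 8.74 to 18.4 FPKM in MC and 12.7 to 37.7 FPKM in LC. Only VWF passed, lower in HC and in MC than in LC (1 of 4 each), against 17.4% and 17.1% of all genes. At an unadjusted p under 0.05 in limma, 4 of 4 were lower in HC than in LC and 1 of 4 in MC than in LC. The libraries of 3 of 4 did not overlap in HC minus LC, with HC lower, against 27.4% of all genes. In MC minus LC 1 of 4 did not overlap, with MC lower, against 23.4% of all genes. Fibroblast markers, 5 of 5 listed, summed to 122 to 266 FPKM in HC, 119 to 272 FPKM in MC and 203 to 503 FPKM in LC, and 0 of 5 passed in limma in HC minus LC or in MC minus LC, with 3 of 5 at an unadjusted p under 0.05 in each. The part of leukocytes, endothelium, fibroblasts and epithelial layers in the heat shock values was not tested.

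**Figure D5:**
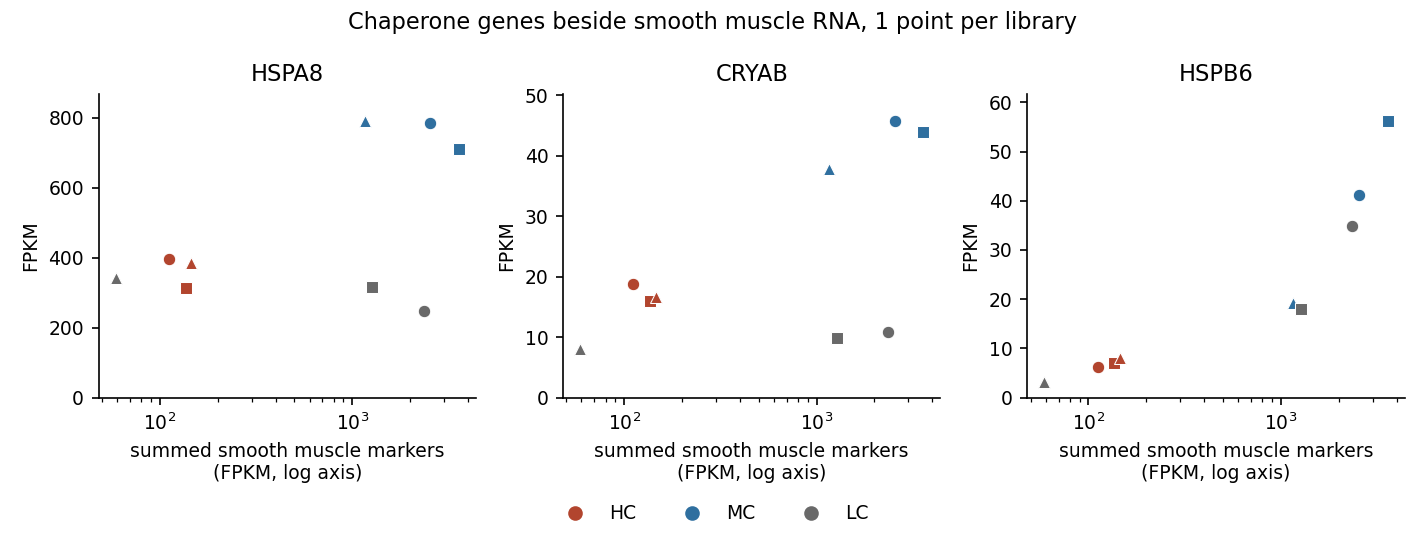
Summed FPKM of 8 smooth muscle markers in a library (x axis, log scale) against the FPKM of HSPA8, CRYAB and HSPB6, a small heat shock protein of muscle, in the same library (y axis). Each panel has 9 points, coloured by diet, with the marker shape for the replicate number. LC replicates 1 and 2 lie at 2350 and 1270 FPKM of muscle markers with HSPA8 at 247 and 315 FPKM, and the MC libraries lie at 1160 to 3590 FPKM with HSPA8 at 709.7 to 790.1 FPKM.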

How the data were processed

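Total RNA from frozen rumen epithelium was made into libraries with a TruSeq kit, per the labels' protocols. The deposited files give 1 FPKM value per gene and library. The submitters' processing notes name Cufflinks 2.2.1 and Bowtie 1.2.0 as tools. That the values are FPKM was inferred from Cufflinks and from the values. Neither genome build nor strandedness was given in the sources used here. Start positions in the files count from 0 and were written from 1. Chromosomes and older gene names were looked up in RefSeq (goat ARS1.2), whose table holds 16473 (89.6%) of the names. Lines of CD81 and TPT1 were summed, and 18 to 21 lines of the MC and LC files whose names had become dates were left out.

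A level of 1 FPKM was reached in at least 3 libraries by 11879 genes, and 211 of them not listed in every library were left out. The other 11668 were compared as log2(FPKM + 1) with limma 3.58.1 in R 4.3.3, with trend and robust moderation and a mean per diet (6 residual and a median of 5.77 prior degrees of freedom). The fit was tested on simulated data. No fit used read counts, which the files do not hold, so precision at a given depth is unknown.

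The 10 heat shock genes, the other lists, the tests and the alternatives were chosen with earlier results of these data known. Of the network, up to 4 genes per comparison and direction past the test were named by adjusted p, with HSF1, HSPA1A, HSPA9, BAG3, STIP1, CRYAB and HSPB8 whatever their values. The genes in the closing observations were chosen after their values were seen. Alternative fits used a pseudocount of 0.1, other filters, scalings and moderation, array weights (statmod 1.5.0), fewer libraries or a replicate block. Tables and figures used Python 3.11.15, pandas 2.3.3, numpy 2.4.6 and matplotlib 3.10.9.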

Additional observations from a re-analysis of the deposited data

How the results depend on the processing

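Under 21 alternatives (20 for the F test) the count of heat shock genes called stayed within 1.5 times of 7 in MC minus LC (5 to 7) and in the F test (5 to 8). In HC minus LC, 2 as reported, it was 7 with median-of-ratios scaling and with array weights, 1 with only the 2 diets compared, 0 with the muscle covariate and with LC replicate 3 alone, and 0 to 3 without each library in turn. In HC minus MC, 4 as reported, it was 7 with array weights and 4 to 6 without each library. Network genes called, 12 in HC minus LC, were 19 with median-of-ratios scaling, 33 with array weights, 6 with LC replicate 3 alone and 7 to 17 without each library. In HC minus MC, 18 as reported, they were 47 with array weights, 29 with only the 2 diets, 6 with the covariate, 29 with LC replicate 3 alone and 10 to 34 without each library. In the F test, 30 as reported, they were 57 with array weights and 21 to 39 without each library. All genes called in HC minus LC, 2939 as reported, were 1908 at a filter of 5 FPKM, 5889 with array weights, 1379 with LC replicate 3 alone and 1769 to 2811 without each library. In MC minus LC, 3894 as reported, they were 2322 with LC replicate 3 alone. In HC minus MC, 2917 as reported, they were 6590 with array weights, 968 with the covariate and 1619 to 4066 without each library. In the F test, 5274 as reported, they were 8497 with array weights. Causes of these shifts were not tested.

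Replicate numbers do not pair the libraries by their labels. Deviations of same-numbered libraries correlated at -0.076 to 0.504, with 6 of 9 pairs over 0.1. The 18 pairs with different numbers correlated at -0.494 to 0.31. Some of these also exceeded 0.1, such as HC replicate 2 with MC replicate 3 at 0.31. Of the 9 libraries, 7 correlated best with their own number, a hint from the data and not from the design. With the replicate block the heat shock genes called were 4 in HC minus LC, and network genes called were 23 in HC minus LC and 32 in HC minus MC. Among the genes named, the block added calls for DNAJA1, DNAJB1 (adjusted p = 0.0441), BAG3 (0.023) and STIP1 (0.0106) in HC minus LC, BAG3 in MC minus LC (0.0213) and STIP1 in HC minus MC (0.0228).

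Some changes that passed no test turned sign. HSPE1 in HC minus MC was 0.074 with median-of-ratios scaling and -0.14 to 0.053 without each library in turn, HSP90AB1 in HC minus MC was -0.046 with the covariate, and DNAJB1 in MC minus LC was -9.9e-05 with array weights. HSF1 in HC minus LC was -0.10 with array weights and -0.044 to 0.22 without each library. HSPA9 in HC minus LC was -0.032 with quantile normalization, -0.018 to 0.18 without each library, -0.019 with the covariate and -0.047 with LC replicate 3 alone. In MC minus LC it was -0.03 with quantile normalization, -0.069 with array weights, -0.071 to 0.13 without each library and -0.10 with LC replicate 3 alone, and in HC minus MC -0.0022 with quantile normalization and -0.18 with the covariate. BAG3 in HC minus MC was -0.0087 when scaled without mitochondrial and ribosomal genes, -0.083 to 0.14 without each library and -0.16 with the covariate. The files give no counts, so what depth limits could not be computed.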

Other observations

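Some network genes had values that ran with the smooth muscle markers across libraries rather than with the heat shock genes. HSPB6, a small heat shock protein of muscle, had 6.23, 6.97 and 8.07 FPKM in HC, 41.2, 56.2 and 19.2 FPKM in MC and 34.9, 18.0 and 3.13 FPKM in LC. DNAJB5 had 0.482, 0.451 and 0.375 FPKM in HC, 3.66, 5.93 and 2.67 FPKM in MC and 3.66, 0.852 and 0.141 FPKM in LC. MYH11, the smooth muscle myosin heavy chain, had 4.39, 5.69 and 6.90 FPKM in HC, 193, 293 and 86.0 FPKM in MC and 253, 129 and 2.41 FPKM in LC. In each of these genes LC replicate 1 was the highest LC library and LC replicate 3 the lowest, the reverse of HSPA8 and HSPH1, where LC replicate 1 was lowest and LC replicate 3 highest. CRYAB and HSPB8 had that order within LC too. In MC replicates 1, 2 and 3, CRYAB had 45.7, 44.0 and 37.8 FPKM and HSPB8 77.4, 77.7 and 76.4 FPKM. The summed muscle markers of those libraries were 2550, 3590 and 1160 FPKM. BAG2, a cochaperone of HSP70 that slows ubiquitination of its clients, had 10.1, 7.76 and 8.48 FPKM in HC, 32.7, 32.6 and 20.3 FPKM in MC and 23.5, 12.6 and 8.99 FPKM in LC. It was lower in HC than in MC at -1.57 ± 0.31 (limma, adjusted p = 0.00661). The part of muscle RNA in these values was not tested.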
